A study of Mus musculus with 54 samples.

Results

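The 7 genes described here belong to the Notch pathway and to the segmentation programme of the mouse embryo: Dll1 and Dll3 (delta-like ligands), Notch1 (receptor), Lfng (a sugar transferase that modifies Notch receptors), Hes7 (a transcriptional repressor), Mesp2 (a bHLH factor of the forming somite) and Ripply2 (a repressor). They were chosen by name, with earlier results of these data known, and all 7 were found once each among the 20036 genes of the expression table. All 7 also passed the filter on low values (at least 1 TPM, a measure of transcript abundance scaled for gene length and library depth, in at least 2 libraries), as did 14416 genes in all. Hes7 reached 1 TPM in only 3 libraries and Ripply2 in only 4, for Ripply2 on as little as 1 read. RNA was sequenced from mouse embryonic stem cells (ESC), from epiblast-like cells (EpiLC), which are made from ESC and resemble the epiblast before gastrulation, and from primordial germ cell-like cells (PGCLC) at day 2. At each of these 3 stages there were 9 lines on a C57BL/6 X 129/SvJ background and 2 libraries per line, 54 libraries and 27 groups in all. The lines were wild type (WT), mutants of Ovol1, Ovol2 and Ovol3 (Ovol1KO, Ovol2KO, Ovol3KO), a line labelled TKO whose mutated genes the labels do not spell out, and lines overexpressing Ovol2a (Ovol2a-Tg), Ovol2b (Ovol2b-Tg), both (Ovol2a/2b-Tg) or Cdh1 (Cdh1-Tg). The promoters that drive the transgenes, the genotype in which they were placed, and the number of clones per line are not stated in the labels. A difference between a transgenic line and WT thus cannot be assigned to the transgene alone. The labels do not say whether the 2 libraries of a group come from different cultures. Every p-value therefore reflects a spread within groups, pooled over the groups fitted together, between libraries that may differ technically alone.

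Notch signalling passes between neighbouring cells: a ligand on one cell binds a receptor on the next, the receptor is cut, and its intracellular part enters the nucleus and acts with RBPJ on target genes such as those of the Hes and Hey families. In the presomitic mesoderm of the embryo the same pathway oscillates. Hes7 and Lfng feed back on it, Dll1 carries the signal, Dll3 damps Notch signalling within the cell, and Mesp2 and Ripply2 act where the next somite boundary forms. Day 2 PGCLC aggregates are bulk samples, and in bulk RNA fewer cells of a type and less RNA per cell cannot be told apart.

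The line labels were checked on the transcripts of the altered genes. In PGCLC, Ovol2 averaged 320 TPM in Ovol2b-Tg, 884 TPM in Ovol2a-Tg and 3296 TPM in Ovol2a/2b-Tg against 9.12 TPM in WT, and Cdh1 averaged 563 TPM in Cdh1-Tg against 316 TPM in WT. The mutants did not all hold less of the mutated gene's transcript. Ovol2 in Ovol2KO stood above WT in ESC (14.7 against 7.81 TPM) and EpiLC (34.1 against 11.1 TPM) and below it in PGCLC (5.71 TPM). In TKO Ovol2 was 5.15 TPM in ESC, 10.2 TPM in EpiLC and 1.18 TPM in PGCLC. In Cdh1-Tg Ovol2 was 1.65 TPM in ESC, 10.8 TPM in EpiLC and 1.46 TPM in PGCLC. In PGCLC Cdh1 averaged 20.6 TPM in TKO and 38.8 TPM in Ovol2KO. It averaged 56.4 TPM in Ovol2b-Tg, 94.3 TPM in Ovol2a-Tg and 174 TPM in Ovol2a/2b-Tg, each below WT. The genotype behind the transgenes was not tested. Ovol3 in Ovol3KO was 10.2 against 8.91 TPM in ESC, 5.73 against 11.7 TPM in EpiLC and 8.55 against 9.53 TPM in PGCLC. Ovol1 in Ovol1KO was 0.15 against 0.43 TPM in ESC, 0.47 against 0.69 TPM in EpiLC and 1.15 against 0.67 TPM in PGCLC. A gene-level value does not check a mutant label where the deleted part is not given, so line names are used below as the labels give them. The stage labels were checked on marker lists: 6 naive ESC markers summed to between 791.5 and 1332 TPM in ESC and to between 19.96 and 156.7 TPM in EpiLC, whereas 5 EpiLC markers summed to between 1150 and 2587 TPM in EpiLC and to between 77.77 and 341.1 TPM in ESC. The 6 germ cell markers, several of which ESC also express, summed to between 51.2 and 357.2 TPM in PGCLC, to between 9.241 and 40.18 TPM in EpiLC and to between 300.6 and 493.9 TPM in ESC, so they set PGCLC apart from EpiLC but not from ESC. Libraries held between 2158379 and 26728538 reads, as recovered from the TPM steps, and the median library held 8649672 reads.

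Promoter sequences are shown for Dll1, Dll3 and Notch1, the members with the largest and best measured stage changes, because Dll1 and Dll3 moved together between ESC and EpiLC while Notch1 moved the other way. Each is the window from 250 bases before to 50 bases after a RefSeq start on GRCm38.p6, printed 5′ to 3′ on the strand of the gene, which is the minus strand in each case. Capitals mark matches to any of the 7 short motifs named after the sequences. Dll1 has a pair of annotated starts, with windows chr17:15375774-15376073 and chr17:15376883-15377182, Dll3 has the window chr7:28301736-28302035, and Notch1 has chr2:26503773-26504072.
Dll1 (inner start): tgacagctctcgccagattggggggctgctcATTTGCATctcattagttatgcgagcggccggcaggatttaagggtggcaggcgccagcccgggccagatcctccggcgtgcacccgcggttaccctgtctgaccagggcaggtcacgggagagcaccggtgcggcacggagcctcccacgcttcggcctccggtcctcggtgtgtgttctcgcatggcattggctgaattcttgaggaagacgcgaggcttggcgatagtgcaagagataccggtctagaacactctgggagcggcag
Dll1 (outer start): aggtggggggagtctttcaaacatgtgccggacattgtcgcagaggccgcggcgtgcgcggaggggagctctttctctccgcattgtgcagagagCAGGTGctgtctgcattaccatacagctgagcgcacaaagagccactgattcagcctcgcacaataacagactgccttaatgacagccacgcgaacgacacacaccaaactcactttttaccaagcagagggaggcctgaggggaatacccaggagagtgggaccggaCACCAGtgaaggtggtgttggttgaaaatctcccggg
Dll3: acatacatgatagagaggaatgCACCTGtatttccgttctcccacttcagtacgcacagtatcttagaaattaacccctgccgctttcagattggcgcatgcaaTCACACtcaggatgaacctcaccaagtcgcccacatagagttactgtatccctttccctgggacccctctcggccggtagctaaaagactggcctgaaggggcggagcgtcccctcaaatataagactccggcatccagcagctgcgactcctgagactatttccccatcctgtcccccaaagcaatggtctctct
Notch1: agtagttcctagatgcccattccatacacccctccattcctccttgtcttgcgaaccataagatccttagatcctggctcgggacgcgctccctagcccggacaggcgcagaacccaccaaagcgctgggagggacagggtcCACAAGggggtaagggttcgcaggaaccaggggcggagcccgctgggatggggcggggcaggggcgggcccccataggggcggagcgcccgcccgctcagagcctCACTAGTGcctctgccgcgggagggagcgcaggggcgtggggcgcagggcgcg

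Matches were sought on both strands of the 8 promoter windows of the 7 members and of all 32851 promoters. The octamer ATGCAAAT, the site read by POU factors such as Oct4, was in 1.74% of all promoters and in 1 of the 8 member windows, at the inner start of Dll1. CACCTG, an E-box of the Snail and Zeb repressors, was in 20.2% of all promoters and in 2 of the 8, those of Dll3 and of the outer start of Dll1. TCACAC, a T-box core, was in 14.5% of all promoters and in 2 of the 8, those of Dll3 and Ripply2. The RBPJ core TGGGAA was in 25.6% of all promoters and in 2 of the 8, those of Lfng and Hes7. The Hes N-box CACNAG was in 42.5% of all promoters and in 4 of the 8, with a pair of overlapping matches in Notch1. CTTTGA, the core read by TCF and LEF factors, was in 16% of all promoters and in 0 of the 8 windows. CCGTTA, an Ovo core, was in 2.76% of all promoters and likewise in 0 of the 8. A match describes letters in the window and no binding was measured.

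On the annotation of the mm10 genome (GENCODE M21), Dll1 lies on the minus strand of chromosome 17 from 15367354 to 15376872 and shares 867 exon bases with the opposite-strand lincRNA A930024N18Rik. Notch1 spans 26457903 to 26516663 on chromosome 2 and shares 1068 exon bases with 0610009E02Rik and 414 with Gm13568, both on the opposite strand. Hes7 spans 69120404 to 69124055 on chromosome 11 and shares 234 exon bases with 9130213A22Rik. The library kit marks strand, but how the counting treated strand is not stated, so reads from these overlaps cannot be told apart. The other 4 members share no exon base with another gene.

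**Figure D1:**
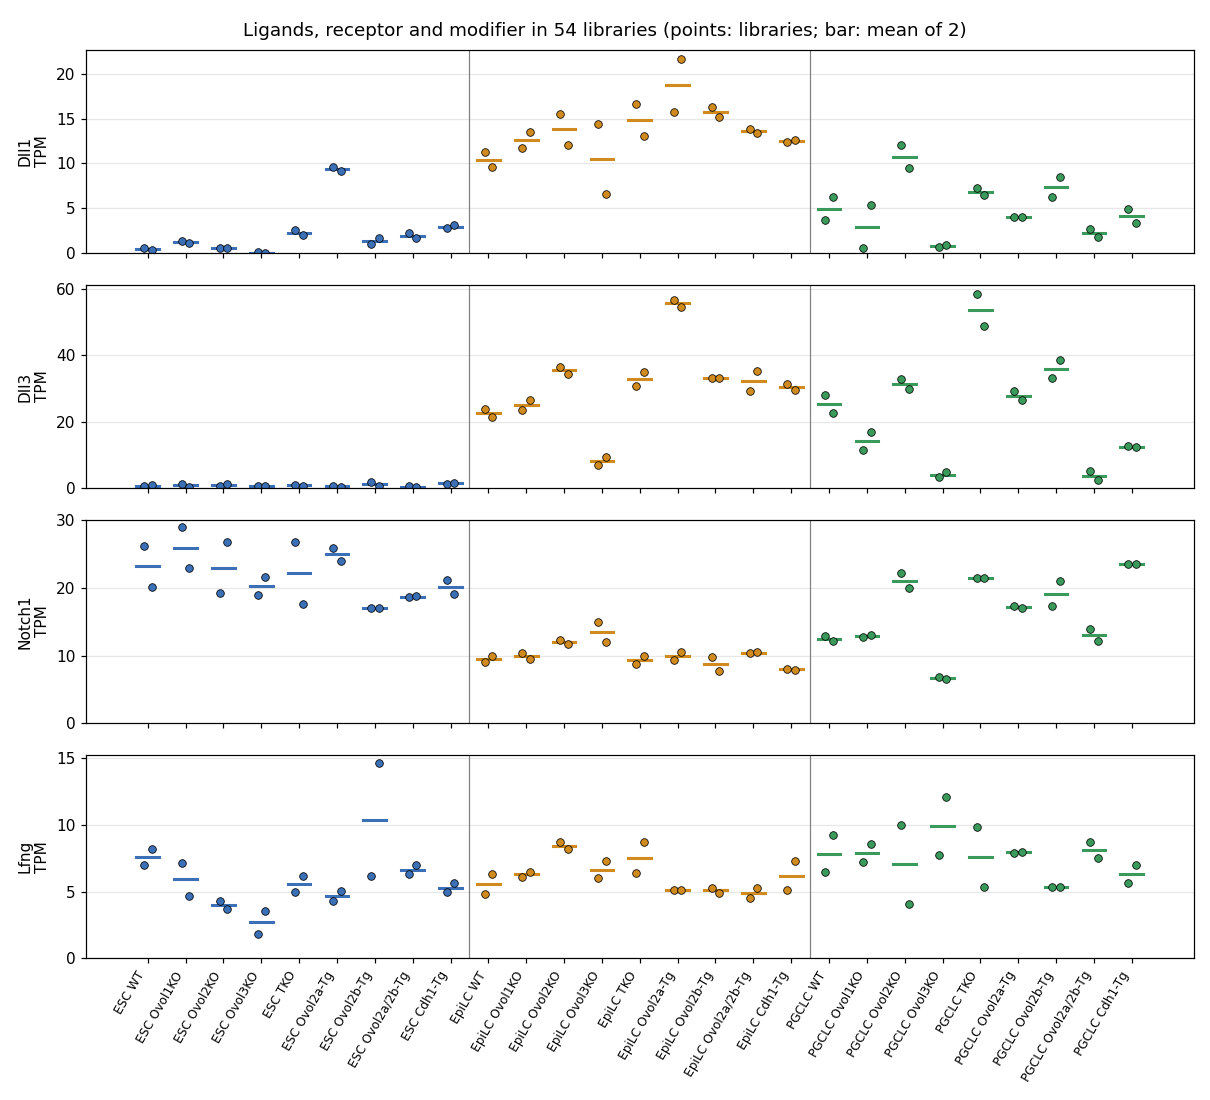
TPM of Dll1, Dll3, Notch1 and Lfng in all 54 libraries, one panel per gene, with stages from left to right and lines within a stage. Points are libraries and bars the mean of 2. Dll3 lies between 0.236 and 1.92 TPM in every ESC library and between 7.08 and 56.6 TPM in every EpiLC library, and Notch1 is lowest in EpiLC in most lines.

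In WT cells the step from ESC to EpiLC raised both ligands and lowered the receptor. A gene was called changed where its Benjamini-Hochberg adjusted p from limma was under 0.05 and its log2 fold change, on the log2(TPM + 1) scale, was at least 1 in size. This scale understates the changes of genes with low values. Of the 7 members, 2 rose, 1 fell and 4 were not called. Of all genes tested 20.6% were called, 9.33% higher and 11.2% lower. Dll1 stood at 0.53 and 0.41 TPM in the WT ESC libraries and at 11.2 and 9.61 TPM in the WT EpiLC libraries. The groups did not overlap, and the log2 fold change was 2.96 ± 0.34 (SE; adjusted p = 2.91e-09). Dll3 went from 0.67 and 0.96 TPM in ESC to 23.7 and 21.5 TPM in EpiLC, again without overlap. Its log2 fold change was 3.70 ± 0.24 (adjusted p = 1.73e-15). Notch1 went from 26.2 and 20.2 TPM in ESC to 9.03 and 9.98 TPM in EpiLC, a log2 fold change of -1.19 ± 0.15 (adjusted p = 2.85e-08), and here too each EpiLC value lay below each ESC value.

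The same step was examined in the other 8 lines. Over all 9 lines Dll3 rose in 9, with log2 fold changes from 2.43 in Ovol3KO to 5.17 in Ovol2a-Tg, and Dll1 rose in 8. Dll1 was not called in Ovol2a-Tg, where its log2 fold change was 0.90 (adjusted p = 0.0222) and its ESC level is described below. Notch1 fell in 5 of the 9 lines (WT, Ovol1KO, TKO, Ovol2a-Tg and Cdh1-Tg) and passed the adjusted p alone, in the same direction, in the other 4. The TKO call (-1.14) was lost without ESC TKO replicate 1 (-0.85). Its log2 fold change was smallest in Ovol3KO, at -0.56 ± 0.15 (adjusted p = 0.00212). The adjusted p alone was passed by 53.8% to 59.2% of all genes per line. In all, 25 of 63 tests of a member in a line were called. The share of all genes called was 18.9% in Ovol1KO, 22.8% in Ovol2KO, 19.3% in Ovol3KO, TKO and Ovol2a/2b-Tg, 20.0% in Ovol2b-Tg, 19.9% in Cdh1-Tg and 19.8% in Ovol2a-Tg. Each of these comparisons was made within a line, and whether a line's change differed from that of WT was not tested at this step.

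Between EpiLC and PGCLC the WT members moved less. In WT 0 of the 7 were called by limma, against 21.1% of all genes, while 2 had an unadjusted p under 0.05 and limma-voom on recovered reads called 1. Dll1 went from 11.2 and 9.61 TPM to 3.69 and 6.24 TPM, a log2 fold change of -0.97 ± 0.34 (adjusted p = 0.0143) that fell just short of the fold asked for. The median of all genes was 0.15 in this comparison, and after quantile scaling the Dll1 value was -1.30 and called. Notch1 went from 9.03 and 9.98 TPM to 12.8 and 12.1 TPM (0.36 ± 0.15, adjusted p = 0.0416). Dll3 was 28.0 and 22.5 TPM in WT PGCLC, a range that overlaps its EpiLC values.

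Over the 9 lines Dll1 fell from EpiLC to PGCLC in 7, and 13 of 63 tests of a member were called. The share of all genes called was 17.2% in Ovol1KO, 24.3% in Ovol2KO, 12.8% in Ovol3KO, 24.5% in TKO, 23.8% in Ovol2b-Tg, 19.8% in Ovol2a-Tg, 24.2% in Ovol2a/2b-Tg and 22.9% in Cdh1-Tg. The lines in which Dll1 was not called were WT, given above, and Ovol2KO, with -0.33 (adjusted p = 0.412). The Dll1 falls in TKO (-1.004 ± 0.34, adjusted p = 0.0102) and Ovol2b-Tg (-1.01 ± 0.34, adjusted p = 0.01) sat at the threshold. Both were lost with a pseudocount of 0.1, the former also without EpiLC TKO replicate 1 or PGCLC TKO replicate 2, and the latter also without EpiLC Ovol2b-Tg replicate 3 or PGCLC Ovol2b-Tg replicate 1. These 2 lines also showed called rises of Notch1, of 1.12 in TKO and 1.05 in Ovol2b-Tg, and Cdh1-Tg showed the highest, at 1.45 ± 0.15 (adjusted p = 3.19e-10). The Notch1 rises in TKO and Ovol2b-Tg were not called under quantile scaling, and the latter was also lost with limma-voom and without EpiLC Ovol2b-Tg replicate 4 or PGCLC Ovol2b-Tg replicate 2. Dll3 fell in Ovol2a/2b-Tg, from 29.2 and 35.3 TPM to 5.23 and 2.42 TPM (-2.84 ± 0.24, adjusted p = 1.58e-12). It also fell in Cdh1-Tg, from 31.3 and 29.6 TPM to 12.7 and 12.3 TPM (-1.22 ± 0.24, adjusted p = 4.35e-05).

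Whether this step differed between lines was tested by an interaction term for 3 mutants against WT. In Ovol3KO the change from EpiLC to PGCLC was lower than in WT for 3 of the 7 members, against 16.1% of all genes called in either direction. The difference of the log2 changes was -1.60 ± 0.48 for Dll1 (adjusted p = 0.00785), -1.01 ± 0.34 for Dll3 (adjusted p = 0.0173) and -1.27 ± 0.22 for Notch1 (adjusted p = 1.47e-05). The Notch1 term kept its call in every alternative and without each library in turn. The Dll1 term was lost without PGCLC WT replicate 2 or EpiLC Ovol3KO replicate 1, and the Dll3 term with a pseudocount of 0.1, under quantile scaling, or without any of 4 libraries: EpiLC WT replicate 2, PGCLC WT replicate 1, EpiLC Ovol3KO replicate 2 or PGCLC Ovol3KO replicate 1. For Ovol2KO limma called 0 members (7.71% of all genes), 1 had an unadjusted p under 0.05 and limma-voom called 0. For TKO limma called 0 (9.41% of all genes) and limma-voom called 0. There 1 member, Notch1, had an unadjusted p under 0.05, with a difference of 0.76 ± 0.22 (adjusted p = 0.00932) that did not reach the fold. The adjusted p alone was passed by 16.4% of all genes for Ovol2KO and 21.2% for TKO.

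**Figure D2:**
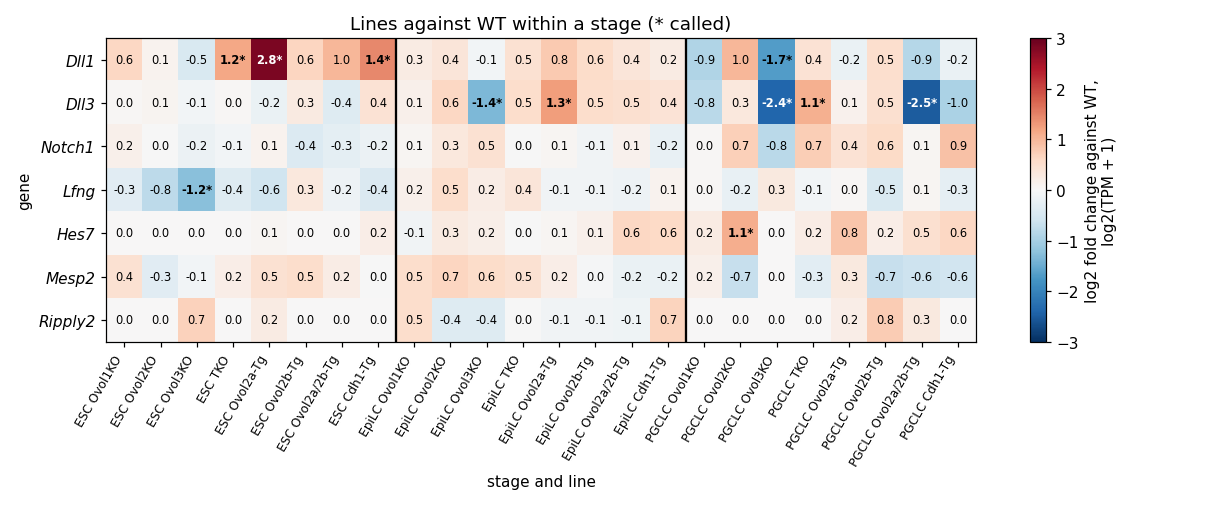
Log2 fold change of each member in each line against WT of the same stage, on the log2(TPM + 1) scale, with 1 row per gene and 8 lines per stage. Colour runs from blue (lower) to red (higher), and a star marks a called value. In PGCLC the strongest blue cells are Dll3 in Ovol2a/2b-Tg and Ovol3KO, and the strongest red cell of the map is Dll1 in ESC Ovol2a-Tg.

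The ligand Dll1 differed most between lines in ESC, the stage at which WT held least of it. In ESC Ovol2a-Tg it was 9.64 and 9.19 TPM against 0.53 and 0.41 TPM in WT, a log2 fold change of 2.83 ± 0.19 (adjusted p = 3.25e-07). The higher of these ESC values lies just above the lower WT EpiLC value of 9.61 TPM. It rose less in Cdh1-Tg, to 2.79 and 3.12 TPM (1.43 ± 0.19, adjusted p = 7.81e-05), and in TKO, to 2.53 and 2.00 TPM (1.15 ± 0.19, adjusted p = 0.000827). The values of Ovol2a/2b-Tg were 2.20 and 1.64 TPM, with 0.99 ± 0.19 (adjusted p = 0.00229), short of the fold, and called under quantile scaling, with limma-voom and with a pseudocount of 0.1. Ovol2b-Tg, at 0.97 and 1.65 TPM (0.64 ± 0.19, adjusted p = 0.027), was called with a pseudocount of 0.1 (1.28). Ovol1KO was at 1.35 and 1.13 TPM, and Ovol2KO, at 0.569 and 0.572 TPM, lay only narrowly above WT. All 8 lines were set against the same WT pair, which held 5 and 2 reads of Dll1. Ovol3KO, at 0.14 and 0 TPM, lay below WT, with 1 and 0 reads against 5 and 2 in WT. It was called lower with a pseudocount of 0.1 (-1.87). In the Ovol3KO libraries 3 reads would give 0.41 and 0.71 TPM, close to or above the WT values. At that depth the size of a fall from WT cannot be read. Over the 8 ESC lines 4 of 56 tests of a member were called, 3 of them Dll1. The share of all genes called was 0.541% in Ovol1KO, 3.36% in Ovol2KO, 1.85% in Ovol3KO, 4.08% in TKO, 5.56% in Ovol2b-Tg, 4.95% in Ovol2a-Tg, 4.31% in Ovol2a/2b-Tg and 6.40% in Cdh1-Tg.

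Markers of other states were read beside these ESC values. The 5 EpiLC markers summed to 77.77 and 92.92 TPM in ESC Ovol2a-Tg and to 100.1 and 98.38 TPM in WT. They summed to 341.1 and 333.4 TPM in ESC Cdh1-Tg and to 209.4 and 171.9 TPM in ESC TKO, above WT in both. The 10 neural markers summed to 42.71 and 47.48 TPM in Ovol2a-Tg and to 93.46 and 88.94 TPM in WT. The lower sum did not mean that each marker was lower. Of the 10, 5 averaged at least 1 TPM in Ovol2a-Tg and 3 in WT. Neurog1 and Neurog2 were at 0 in both WT libraries but not in both of Ovol2a-Tg. The part of either list in the Dll1 rises was not tested.

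In PGCLC, Dll1 fell in Ovol3KO, to 0.70 and 0.95 TPM against 3.69 and 6.24 TPM in WT (-1.68 ± 0.45, adjusted p = 0.00679). The call was lost without PGCLC WT replicate 2. In Ovol2KO Dll1 was 12.1 and 9.45 TPM, above both WT libraries, but the difference was not called (1.01 ± 0.45, adjusted p = 0.113). It was called with limma-voom (1.15) and in the fit of all 54 libraries. In Ovol2a/2b-Tg it was 2.69 and 1.83 TPM, below both WT libraries and not called (-0.85 ± 0.45, adjusted p = 0.162), though called lower with limma-voom (-1.21, adjusted p = 0.0351). Libraries of the Ovol1KO line were far apart, at 0.54 and 5.38 TPM, and spanned the lower WT value. In EpiLC no line was called for Dll1, the 18 libraries lying between 6.58 and 21.6 TPM. There Ovol2a-Tg came closest, at 15.8 and 21.6 TPM (0.77 ± 0.24, adjusted p = 0.0369).

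Dll3 showed the widest differences between lines in PGCLC. Ranked by the mean of 2 libraries, TKO stood highest at 58.4 and 49.0 TPM, followed by Ovol2b-Tg, Ovol2KO, Ovol2a-Tg, WT at 28.0 and 22.5 TPM, Ovol1KO, Cdh1-Tg, Ovol3KO and Ovol2a/2b-Tg. Neighbours overlapped between Ovol2a-Tg and WT, between Ovol1KO and Cdh1-Tg, and between Ovol3KO and Ovol2a/2b-Tg. In Ovol3KO Dll3 was 3.34 and 4.89 TPM (-2.37 ± 0.24 against WT, adjusted p = 1.52e-06). In Ovol2a/2b-Tg it was 5.23 and 2.42 TPM (-2.50 ± 0.24, adjusted p = 1.96e-06). These 2 falls kept their calls in every alternative and without each library in turn. Cdh1-Tg, at 12.7 and 12.3 TPM, lay below both WT libraries but short of the fold (-0.95 ± 0.24, adjusted p = 0.00537). The value was called with a pseudocount of 0.1 (-1.003), under quantile scaling (-1.08) and with limma-voom (-1.07). The rise in TKO (1.06 ± 0.24, adjusted p = 0.00285) was called neither under quantile scaling (0.98) nor with limma-voom (0.99), nor without PGCLC WT replicate 2 or PGCLC TKO replicate 1.

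Counted over the 7 members, limma called 2 in PGCLC Ovol3KO (Dll1 and Dll3), against 12.8% of all genes. It called 1 in Ovol2KO (Hes7, with its reads given below), against 8.18%, 1 in TKO (Dll3), against 10.5%, and 1 in Ovol2a/2b-Tg (Dll3), against 7.62%. In Ovol1KO it called 0 (0.666% of all genes), with 1 unadjusted p under 0.05 and 0 calls by limma-voom. In Ovol2a-Tg it called 0 (3.43%), with 2 unadjusted p under 0.05 and 0 by limma-voom. In Ovol2b-Tg it called 0 (8.30%), with 2 and 0, and in Cdh1-Tg 0 (9.86%), with 3 and 1. The bracketed shares are those of limma calls. The adjusted p alone, stricter than the unadjusted p, was passed by 2.66% of all genes in Ovol1KO and 15.4% in Ovol2a-Tg. It was passed by 29.9% in Ovol2b-Tg and 37.5% in Cdh1-Tg. The shares of all genes with an unadjusted p under 0.05, or called by limma-voom, were not counted. These 8 comparisons share the same pair of WT libraries.

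Lines were also compared with each other in PGCLC, without WT. Dll3 was lower in Ovol2a/2b-Tg than in TKO by -3.56 ± 0.24 on the log2 scale (adjusted p = 7.02e-08), where 8.37% of all genes were called. It was lower in Cdh1-Tg than in TKO by -2.01 ± 0.24 (adjusted p = 5.9e-05; 2.30% of all genes). Both differences kept their calls in every alternative and without each library. Ovol2a-Tg also lay below TKO, by -0.92 (adjusted p = 0.0171; 3.29% of all genes called), short of the fold. A difference of 0.75 between TKO and Ovol2KO did not pass (adjusted p = 0.0819; 0.985% of all genes called). In 2 further comparisons, Ovol2b-Tg with TKO (0.354% of all genes) and Ovol2a-Tg with Ovol2b-Tg (0.930%), limma and limma-voom called 0 members. There 2 and 1 members had an unadjusted p under 0.05. The adjusted p alone, a stricter rule, was passed by 1.19% and 4.87% of all genes. Dll1 was called lower in Ovol2a/2b-Tg than in TKO (-1.28 ± 0.45, adjusted p = 0.0368), but not with a pseudocount of 0.1, without the filter, without the trend, or without any 1 of the 4 libraries.

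At the EpiLC stage the Dll3 order was in part another one. Ovol2a-Tg stood highest, at 56.6 and 54.6 TPM against 23.7 and 21.5 TPM in WT (1.26 ± 0.12, adjusted p = 5.31e-06; 2.06% of all genes called). Ovol3KO stood lowest, at 7.08 and 9.47 TPM (-1.36 ± 0.12, adjusted p = 2.05e-06; 2.85% of all genes). Dll3 was thus the 1 member called in each of these comparisons, and 2 of 56 tests of a member were called over the 8 EpiLC lines. The share of all genes called in the other EpiLC lines was 0.486% in Ovol1KO, 1.42% in Ovol2KO, 2.30% in TKO, 1.67% in Ovol2b-Tg, 4.50% in Ovol2a/2b-Tg and 6.38% in Cdh1-Tg. In TKO, Ovol2KO, Cdh1-Tg, Ovol2a/2b-Tg and Ovol2b-Tg Dll3 was higher than in WT by 0.42 to 0.63, which passed the adjusted p, as 3.24% to 41.7% of all genes did per EpiLC line, but not the fold. In ESC Dll3 ranged from 1 to 26 reads per library, and no line was called there.

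The receptor Notch1 was read deeply, with 76 to 2559 reads per library, and its line effects were small. In PGCLC no line reached the fold, while 6 of 8 passed the adjusted p, as 2.66% to 46.2% of all genes did per line. Cdh1-Tg, at 23.6 TPM in both libraries, was higher than WT, at 12.8 and 12.1 TPM, by 0.87 ± 0.12 (adjusted p = 3.57e-05). TKO, at 21.5 TPM in both, was higher by 0.74 ± 0.12 (adjusted p = 0.000153). Ovol2KO, at 22.1 and 20.04 TPM, was higher by 0.71 ± 0.12 (adjusted p = 0.000326). Ovol2b-Tg (0.57, adjusted p = 0.00161) and Ovol2a-Tg (0.43, adjusted p = 0.0201) were higher by less. Ovol3KO was lower, at 6.88 and 6.51 TPM (-0.81 ± 0.12, adjusted p = 4.58e-05), below each WT library and below the other PGCLC libraries. In EpiLC Ovol3KO was on the other side of WT, with 15.0 and 12.0 TPM against 9.03 and 9.98 TPM (0.46 ± 0.13, adjusted p = 0.0167). In ESC Notch1 lay between 17.0 and 29.0 TPM and no line passed the adjusted p.

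Lfng, the modifier, lay between 1.85 and 14.6 TPM over the 54 libraries. In ESC Ovol3KO it was 1.85 and 3.57 TPM against 6.98 and 8.21 TPM in WT, a fall of -1.25 ± 0.31 (adjusted p = 0.0162; 1.85% of all genes called) that rested on 9 and 10 reads in the mutant. The call was lost without ESC WT replicate 2 or ESC Ovol3KO replicate 1. From ESC to EpiLC it rose in Ovol3KO, to 6.01 and 7.30 TPM (1.08 ± 0.29, adjusted p = 0.00204), a call lost without ESC Ovol3KO replicate 1 or EpiLC Ovol3KO replicate 2. It was called in no PGCLC line, with values between 4.11 and 12.1 TPM. One ESC Ovol2b-Tg library stood at 14.6 TPM beside 6.19 TPM in the other.

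**Figure D3:**
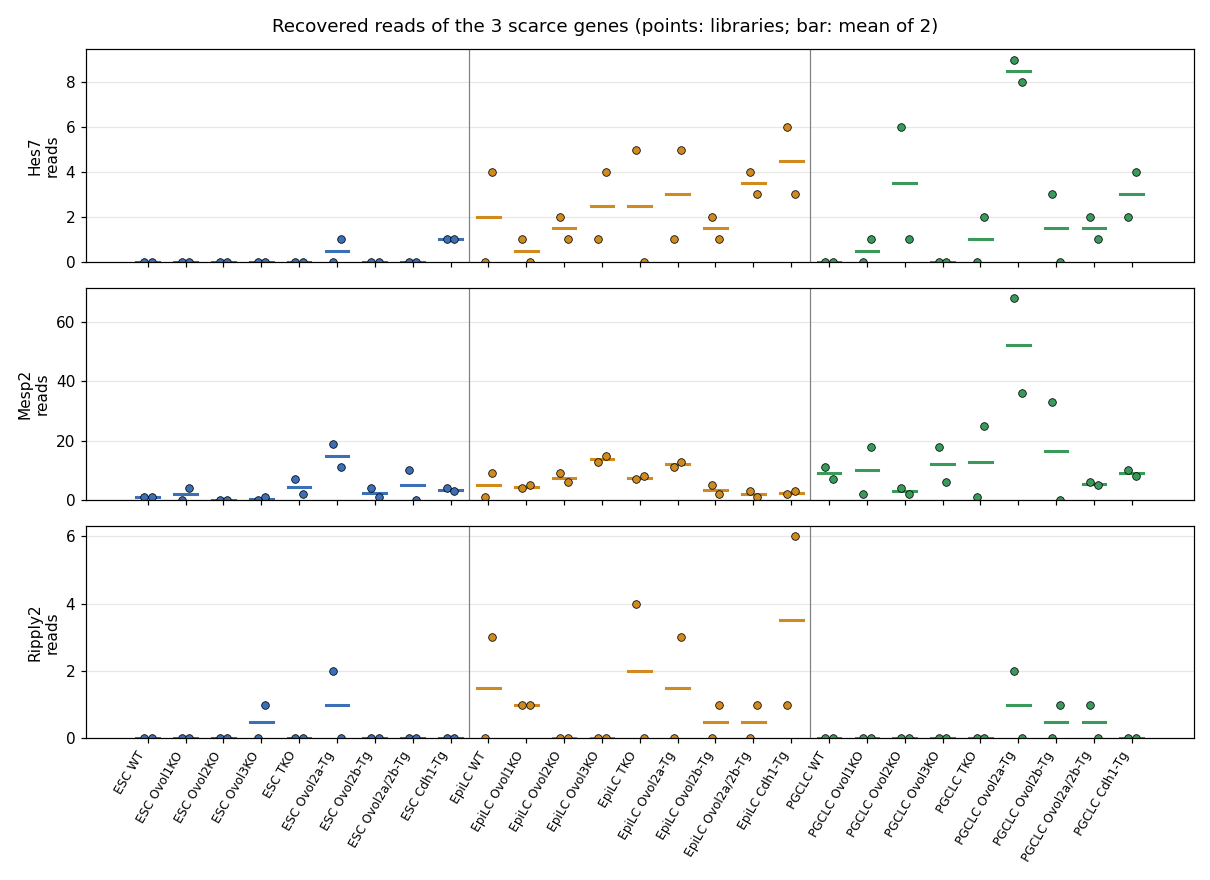
Reads recovered for Hes7, Mesp2 and Ripply2 in each of the 54 libraries, one panel per gene, in the order of stages and lines. Points are libraries and bars the mean of 2. Hes7 has at most 9 reads, Ripply2 at most 6 and Mesp2 at most 68, and many points lie at 0.

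The other 3 members were close to the limit of these libraries. Hes7, the repressor at the centre of the segmentation clock, had 85 reads over all 54 libraries and 0 in 25 of them, with 3 reads in all in ESC, 43 in EpiLC and 39 in PGCLC. The highest counts were 9 and 8 reads, 0.77 and 0.78 TPM, in PGCLC Ovol2a-Tg, where both WT libraries had 0. That difference passed the adjusted p but not the fold (0.83 ± 0.24, adjusted p = 0.0285). Both Ovol2a-Tg values lay below the 1.31 and 0.98 TPM that 3 reads would give in the WT libraries. The size of the difference therefore cannot be read at the depth of the WT libraries. The call of Hes7 in PGCLC Ovol2KO (1.08 ± 0.24, adjusted p = 0.00338) rested on 6 and 1 reads against 0 and 0. Its mean, 1.13 TPM, was no higher than the 1.14 TPM that 3 reads would give in the WT libraries, so no fold is given, and the call was lost without the library of 6 reads.

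Mesp2 had 445 reads in all, 260 of them in PGCLC, and 0 in 6 libraries. WT PGCLC held 2.39 and 1.14 TPM, from 11 and 7 reads. Ovol2a-Tg PGCLC held the most reads, 68 and 36, which were 2.90 and 1.75 TPM. No line was called against WT at any stage. The 1 call, EpiLC against ESC in Ovol2KO (1.16 ± 0.48, adjusted p = 0.0376), set 9 and 6 reads against 0 and 0. The EpiLC mean was 1.77 times the mean that 3 reads per library would give in ESC. This is not a lower bound, because the lower EpiLC library, at 0.85 TPM, lay below the 1.01 TPM of 3 reads in ESC replicate 2. The call was lost without the filter, under quantile scaling, and without either ESC library or EpiLC Ovol2KO replicate 2. Ripply2 had 28 reads over all libraries, 0 in 40 of them, and no more than 6 in any. Its calls, in Cdh1-Tg, set 1 and 6 reads in EpiLC against 0 in ESC and 0 in PGCLC, with log2 changes of 1.05 (adjusted p = 0.0168) and -1.05 (adjusted p = 0.0151). The EpiLC mean was 1.5 times the mean that 3 reads per library would give in ESC and 1.22 times that in PGCLC. These are not lower bounds, because the EpiLC library of 1 read, at 0.38 TPM, lay below both limits. Both calls were lost under quantile scaling, without the library of 6 reads, and without either library at 0.

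Markers of presomitic mesoderm were high in the WT PGCLC libraries, in which Hes7 and Ripply2 were at 0. The 6 presomitic mesoderm markers (Tbx6, Msgn1, T, Mesp1, Rspo3 and Cyp26a1) summed to 1525 and 1530 TPM in WT PGCLC and to between 0.9097 and 4.26 TPM in ESC and EpiLC. Most of the WT PGCLC sum was T, at 1219 TPM on average, while Tbx6 stood at 8.95 TPM. The 6 somite markers summed to 3.894 and 6.366 TPM in WT PGCLC, to 51.82 and 41.65 TPM in WT EpiLC and to 21.74 and 32.83 TPM in PGCLC Ovol3KO. In each of these groups only 1 of the 6 averaged at least 1 TPM, so each sum is nearly that of a single gene. In WT PGCLC it was Tcf15, at 4.62 TPM. The presomitic markers summed to 163.2 and 62.93 TPM in PGCLC Ovol3KO and to 672.5 and 513.3 TPM in Ovol2a/2b-Tg, where Dll3 fell, and to 1164 and 1140 TPM in Cdh1-Tg, where Dll3 was lower but short of the fold. Over Cdh1-Tg and the 5 other altered lines the sums ran from 916.9 to 1407 TPM. A sum below WT did not mean that each marker was below WT. T averaged 482 TPM in TKO and 727 TPM in Ovol2KO, below WT, whereas Rspo3 averaged 192 and 172 TPM there against 61.4 TPM in WT, and Msgn1 205 and 224 TPM against 140.0 TPM. The 10 neural markers summed to 145.2 and 165.6 TPM in Ovol3KO against 61.95 and 59.5 TPM in WT, with Olig2 at 0 in both lines. The 6 naive markers summed to 468.4 and 411.2 TPM in Ovol3KO against 220.9 and 212.9 TPM in WT, and the 6 germ cell markers to 357.2 and 345.6 TPM against 123.5 and 123.9 TPM. The 10 endothelial markers summed to 47.6 and 60.9 TPM in TKO against 14.97 and 11.53 TPM in WT, with Emcn at 0 in every library. The part of these cell states in the falls and rises of Dll1, Dll3 and Notch1 was not tested.

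A list of 40 other Notch pathway genes, 39 of them tested, was read beside the members. This list, and the presomitic and somite list below, were chosen with earlier results of these data known. Their shares therefore describe the listed genes and do not test an excess over all genes. From ESC to EpiLC in WT 3 rose and 5 fell, 20.5% of the 39 beside 20.6% of all genes called. Hes6, a Hes family inhibitor of Hes1, rose from 14.9 to 180.1 TPM (3.52 ± 0.12, adjusted p = 1.67e-23), and Dtx4, a ubiquitin ligase of the pathway, rose by 2.79. The receptor Notch4 (-2.61), the ligand Jag1 (-2.52) and the coactivator Maml2 (-2.50) fell. The median of the list was -0.25 beside -0.01 for all genes tested.

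From EpiLC to PGCLC in WT 12 of the 39 rose and 4 fell, or 41% beside 21.1% of all genes, with a median of 0.63 beside 0.15 for all genes. The Notch target Hes1 rose from 17.53 ± 3.2 to 189 ± 32 TPM (SD, n = 2; 3.36 ± 0.20, adjusted p = 5.52e-16), the coactivator Maml3 by 2.96 and the target Hey1 by 2.68. The Deltex genes Dtx1 (-3.24) and Dtx4 (-2.77) fell. Of the list of 36 presomitic and somite genes, 33 tested, 22 rose and 2 fell at this step, or 72.7%, with a median of 2.55. T, the mesoderm factor Brachyury, went from 0.461 to 1219 TPM (9.71 ± 0.26). Cdx2, a posterior homeobox factor, went from 0.112 to 181 TPM (7.36 ± 0.32). Fgf8, a growth factor of the tail bud, went from 0.722 to 219 TPM (7.001 ± 0.39). Msgn1 and Evx1, mesoderm transcription factors, were listed at 0 in WT EpiLC and at 140.0 and 176 TPM in WT PGCLC.

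**Figure D4:**
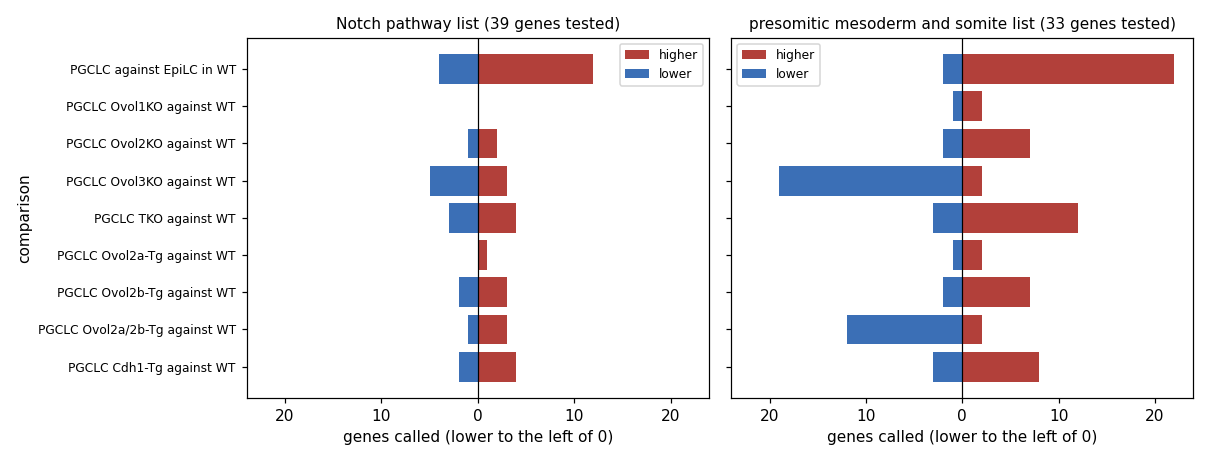
Genes of the Notch pathway list (left, 39 tested) and of the presomitic mesoderm and somite list (right, 33 tested) that were called higher (red, to the right of 0) or lower (blue, to the left) in each PGCLC comparison. The long blue bars on the right are Ovol3KO, with 19 lower, and Ovol2a/2b-Tg, with 12 lower.

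Against WT at the PGCLC stage, Ovol3KO had 3 Notch pathway genes higher and 5 lower, and 2 presomitic and somite genes higher and 19 lower. These are 20.5% and 63.6% of the lists beside 12.8% of all genes, whose median was -0.12. Maml3 (-2.66), Hey1 (-2.43) and Hes1 (-1.71) fell, all named above among the genes higher in WT PGCLC than in WT EpiLC, a comparison that shares the WT PGCLC libraries. Mfng, a Fringe sugar transferase like Lfng, rose by 1.67 and Dtx1 by 1.64. Msgn1 was listed at 0 in Ovol3KO, Mesp1 fell by 5.34, Cdx2 by 4.40, Rspo3 by 4.31 and Hoxb1 by 4.12 on the log2 scale. In Ovol2a/2b-Tg the counts were 3 higher and 1 lower in the Notch list and 2 higher and 12 lower in the presomitic and somite list, or 10.3% and 42.4% beside 7.62% of all genes. Msgn1 (-1.96 ± 0.64, adjusted p = 0.036), the protocadherin Pcdh8 (-1.87), Tbx6 (-1.84), Wnt3a (-1.73) and Fgf17 (-1.60) fell there.

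In TKO 4 Notch list genes were higher and 3 lower, and 12 presomitic and somite genes were higher and 3 lower, or 17.9% and 45.5% beside 10.5% of all genes. Dlk1, a delta-like protein that lacks the domain by which ligands activate receptors, rose from 7.53 to 175 TPM (4.37 ± 0.37, adjusted p = 1.44e-06). The ligand Jag1 rose by 1.53 while the ligand Jag2 fell by 1.45, and the targets Hey2 (1.42) and Hes5 (1.16) rose. Dlk1 was also higher in Ovol2KO (4.29), Cdh1-Tg (4.28), Ovol2b-Tg (3.70), Ovol2a-Tg (2.11) and Ovol2a/2b-Tg (1.81), comparisons that share the WT libraries. The Notch list counts were 2 higher and 1 lower in Ovol2KO, 3 and 2 in Ovol2b-Tg, 1 and 0 in Ovol2a-Tg, and 4 and 2 in Cdh1-Tg. These are 7.69%, 12.8%, 2.56% and 15.4% of the list, beside 8.18%, 8.30%, 3.43% and 9.86% of all genes, so that Ovol2KO and Ovol2a-Tg lie slightly below the share over all genes. In Ovol1KO limma called 0 of the 39, with 1 passing the adjusted p alone. The presomitic and somite counts were 2 higher and 1 lower in Ovol1KO, 7 and 2 in Ovol2KO, 7 and 2 in Ovol2b-Tg, 2 and 1 in Ovol2a-Tg, and 8 and 3 in Cdh1-Tg. In that order they are 9.09%, 27.3%, 27.3%, 9.09% and 33.3% of the list, beside 0.666%, 8.18%, 8.30%, 3.43% and 9.86% of all genes. Meox1, a somite factor, rose in TKO (1.94), Cdh1-Tg (1.87), Ovol2KO (1.52) and Ovol2a-Tg (1.40), and Pcdh8 fell in those lines (-1.94, -1.80, -1.58 and -1.14).

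Over the 27 group means the levels of Dll1 and Dll3 had a Pearson correlation of 0.79, and Dll3 and Notch1 one of -0.54. These are descriptions: the groups fall into 3 stages, and lines of a stage share culture conditions. The genes most like Dll1 over the 27 groups were Trpc1, Gadd45g and Rdh11, each at 0.91. Those most like Dll3 were Mfsd2a (0.96), Fgf15 (0.95) and Fam101b (0.95), and those most like Notch1 were Smim14 (0.93), Stk3 (0.92) and Slc12a7 (0.92). For Lfng the closest was another member, Mesp2 (0.69), followed by Egfl8 (0.67) and Zfp524 (0.58). For the sparse members the closest genes were Fam155a (0.82), Prdm11 (0.79) and Anp32e (0.79) for Hes7, Mpp4 (0.80), Camk2d (0.76) and Adm (0.75) for Mesp2, and Me1 (0.65), Kbtbd2 (0.64) and Dhx36 (0.61) for Ripply2, values that rest on few reads.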

How the data were processed

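The authors deposited 1 table of TPM (transcript abundance scaled for gene length and library depth) per gene and library. Per the labels' protocols, total RNA was purified with an RNeasy Micro Kit, poly(A) RNA was selected and libraries were made with a directional kit. Per the submitters' processing notes, the tools were HISAT2, featureCounts and edgeR and the genome mm10, with no versions or settings stated. Groups come from the sample titles. The cell type tag of 8 libraries differs from the title, and 2 columns of EpiLC Ovol2b-Tg could be tied to their group but not to a replicate.

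From the TPM steps whole reads were recovered (tolerance 0.01). limma 3.58.1 in R 4.3.3 was run on log2(TPM + 1) with trend and robust shrinkage over 14416 genes with at least 1 TPM in at least 2 libraries. Each stage was fitted on its 18 libraries (9 residual degrees of freedom), and stage changes and interactions on all 54 (27). A call needs a Benjamini-Hochberg adjusted p under 0.05 over all genes tested and a log2 change of at least 1. The test was tried on simulated data. Floors of 3 reads cover counting error only, and only in the libraries at 0.

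The 2 libraries of a group differed beyond sampling noise in all 27 groups (chi-square per degree of freedom from 1.054 to 10.87). The value of 1.054, close to sampling noise, was that of EpiLC Ovol2b-Tg, the pair of columns not tied to a replicate. The members and lists were chosen with earlier results of these data known. All members are named, and from each list up to 5 called genes with the largest changes per comparison. For each member the 3 most alike genes over the 27 groups are also named.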

Additional observations from a re-analysis of the deposited data

Results flagged for a closer look

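An interaction term found that the change from EpiLC to PGCLC differed between the Ovol3KO line and WT for 3 of the 7 members. Of all genes tested 16.1% were called in either direction. The Notch1 term kept its call throughout. The Dll1 term was lost without either of 2 libraries, and the Dll3 term in 2 alternatives and without any of 4 libraries. On the log2(TPM + 1) scale the Ovol3KO change was lower than the WT change by -1.60 ± 0.48 for Dll1 (limma adjusted p = 0.00785), by -1.01 ± 0.34 for Dll3 (adjusted p = 0.0173) and by -1.27 ± 0.22 for Notch1 (adjusted p = 1.47e-05). Beside these, the sum of the 6 presomitic mesoderm markers was 163.2 and 62.93 TPM in PGCLC Ovol3KO and 1525 and 1530 TPM in PGCLC WT. Most of each sum was T, at 1219 TPM on average in WT and 107 TPM in Ovol3KO. A marker sum does not count cells, and the part of cell states in the differences was not tested.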

How the results depend on the processing

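Of 55 calls, 39 held in every alternative and without each library in turn, and 0 reversed. Counts of members called that moved by over 1.5 times are given with the main count in brackets, and the cause was not tested. The shares of all genes called in these alternatives were not counted. With a pseudocount of 0.1 the counts against WT were 1 in PGCLC Ovol2a-Tg (0), 2 in PGCLC Cdh1-Tg (0) and 7 over the ESC lines (4). With quantile scaling they were 1 for WT PGCLC against EpiLC (0), 0 in PGCLC TKO (1) and 1 in PGCLC Cdh1-Tg (0). With limma-voom on recovered reads they were 1 for WT PGCLC against EpiLC (0), 2 in PGCLC Ovol2KO (1), 0 in TKO (1), 2 in Ovol2a/2b-Tg (1) and 1 in Cdh1-Tg (0), and the fit of all 54 libraries gave 2 in PGCLC Ovol2KO (1). For EpiLC against ESC in the other 8 lines the count of 22 was 28 with a pseudocount of 0.1 and 27 with limma-voom. Averaging the EpiLC Ovol2b-Tg pair, chosen after seeing the data, lost 0 calls. No general pairing by replicate number was seen between lines of a stage: deviations of same-numbered libraries correlated between -0.21 and 0.20, and 4 of 100 pairs exceeded 0.1. Pairing across stages was not examined. A replicate block kept 55 of 55 calls.

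Leaving out 1 library at a time gave ranges of 3 to 3 for WT EpiLC against ESC, 21 to 23 for that step in the other 8 lines, 0 to 1 for WT PGCLC against EpiLC, 12 to 14 in the other 8 lines, 2 to 3 over EpiLC lines, 3 to 5 over ESC lines, 2 to 5 for direct comparisons and 2 to 4 for interactions. In PGCLC the ranges were 0 to 2 in Ovol1KO, 0 to 1 in Ovol2KO, 1 to 2 in Ovol3KO, 0 to 1 in TKO, 0 to 0 in Ovol2a-Tg, 0 to 1 in Ovol2b-Tg, 1 to 1 in Ovol2a/2b-Tg and 0 to 1 in Cdh1-Tg. Depth limits Hes7 and Ripply2 throughout and Mesp2 in most libraries.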
